A study of Mus musculus with 16 samples.

Results

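RNA of cells that are neither macrophages nor microglia was followed in sorted brain myeloid cells through 46 genes, which mark neurons (7 genes), astrocytes (6), oligodendrocytes (7), endothelium (7), mural cells (4), choroid plexus (7), ependyma (4) and the pituitary (4). The genes came from a list of markers in common use, drawn up with earlier results of these data known and with no threshold on their levels, and were found by symbol among the 18580 genes with a count in any library. Each of them had a count in at least 1 library. WT C57BL/6N mice and littermates homozygous for the CD163tm1.1(KOMP)Vlcg deletion (CD163KO), of both sexes, received murine α-syn into the striatum of both hemispheres at 12 weeks of age, either as monomer (α-syn MONO) or as pre-formed fibrils (α-syn PFF), so that the MONO libraries are the controls for the fibrils and no uninjected brain is among them. After 2 months p.i. the mice were perfused, the brains were dissociated with enzymes, debris was removed, and CD11b+ cells were sorted as CD45 low or intermediate microglia (200000 to 500000 cells) or as CD45 high macrophages (10000 to 30000 cells), a gate that also holds other blood-borne myeloid and lymphoid cells. RNA was amplified by SMART-seq2, a full-length method that primes on the poly(A) tail. There are 16 libraries, 1 for each combination of population, sex, genotype and treatment, so no combination had a replicate.

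Each class is marked by genes tied to its work. Neurons carry the vesicle fusion protein Snap25 and neurofilaments, astrocytes the water channel Aqp4 and the gap junction protein Gja1, and oligodendrocytes the myelin proteins Mbp, Mog and Mag. Endothelial cells seal the blood-brain barrier with Cldn5, and mural cells, the pericytes and smooth muscle around vessels, contract with Acta2 and Myl9. The choroid plexus, the ciliated ependyma beside it and the anterior pituitary secrete cerebrospinal fluid, move it, and release hormones such as growth hormone (Gh) and prolactin (Prl). Choroid plexus epithelium is known for very high levels of transthyretin (Ttr). In bulk RNA, fewer cells of a type and less RNA per cell cannot be told apart, and neither can RNA inside a stray cell and free RNA sorted along with a myeloid cell.

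The libraries held 12170686 to 21433841 estimated counts in macrophages and 8648751 to 18768238 in microglia. Of 12 homeostatic microglia genes, 10 were higher in microglia, and all 12 genes of border-associated macrophages and all 6 of monocytes were lower, by edgeR's quasi-likelihood test with Benjamini-Hochberg adjustment. Of 12 neutrophil genes, 11 were lower and Csf3r was higher. The libraries of male CD163KO MONO, which the study left out for replicates that did not match, and of male WT PFF stood apart. Their macrophage libraries listed 9775 and 8378 genes, against 11272 to 12992 in the other 6. Their microglia libraries listed more genes than the other 6, 14597 and 15336 against 11983 to 14045. The microglia library labelled female CD163KO MONO held 799 counts summed over 4 genes of the Y chromosome (Uty, Kdm5d, Ddx3y and Eif2s3y), against 0 to 2 in the other 7 libraries labelled female, so results are also given without that combination.

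Every library held counts of these marker genes, and their summed share differed far more between macrophage libraries than between microglia libraries. The 46 genes together took 0.0354% of the counts in female CD163KO MONO macrophages and 2.13% in female WT MONO macrophages, with a median of 0.28% over the 8 libraries. In microglia they took 0.0522% (male WT PFF) to 0.520% (male WT MONO), with a median of 0.183%. Ttr and Enpp2 made up most of this in 14 of the 16 libraries, the exceptions being the male CD163KO MONO and male CD163KO PFF macrophages. Without both genes the shares were 0.0159% to 0.161% in macrophages and 0.0159% to 0.102% in microglia. Of the 46 genes, 15 to 43 had more than 3 counts in a macrophage library and 32 to 42 in a microglia library. The fewest, 15 and 18, were in the male WT PFF and male CD163KO MONO macrophage libraries, where 24 and 26 of the genes had no count. A count of 0 allows up to 3 counts, which is 0.14 to 0.347 CPM (counts per 1e+06 counts of the library) across the libraries, for counting error only.

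**Figure D1:**
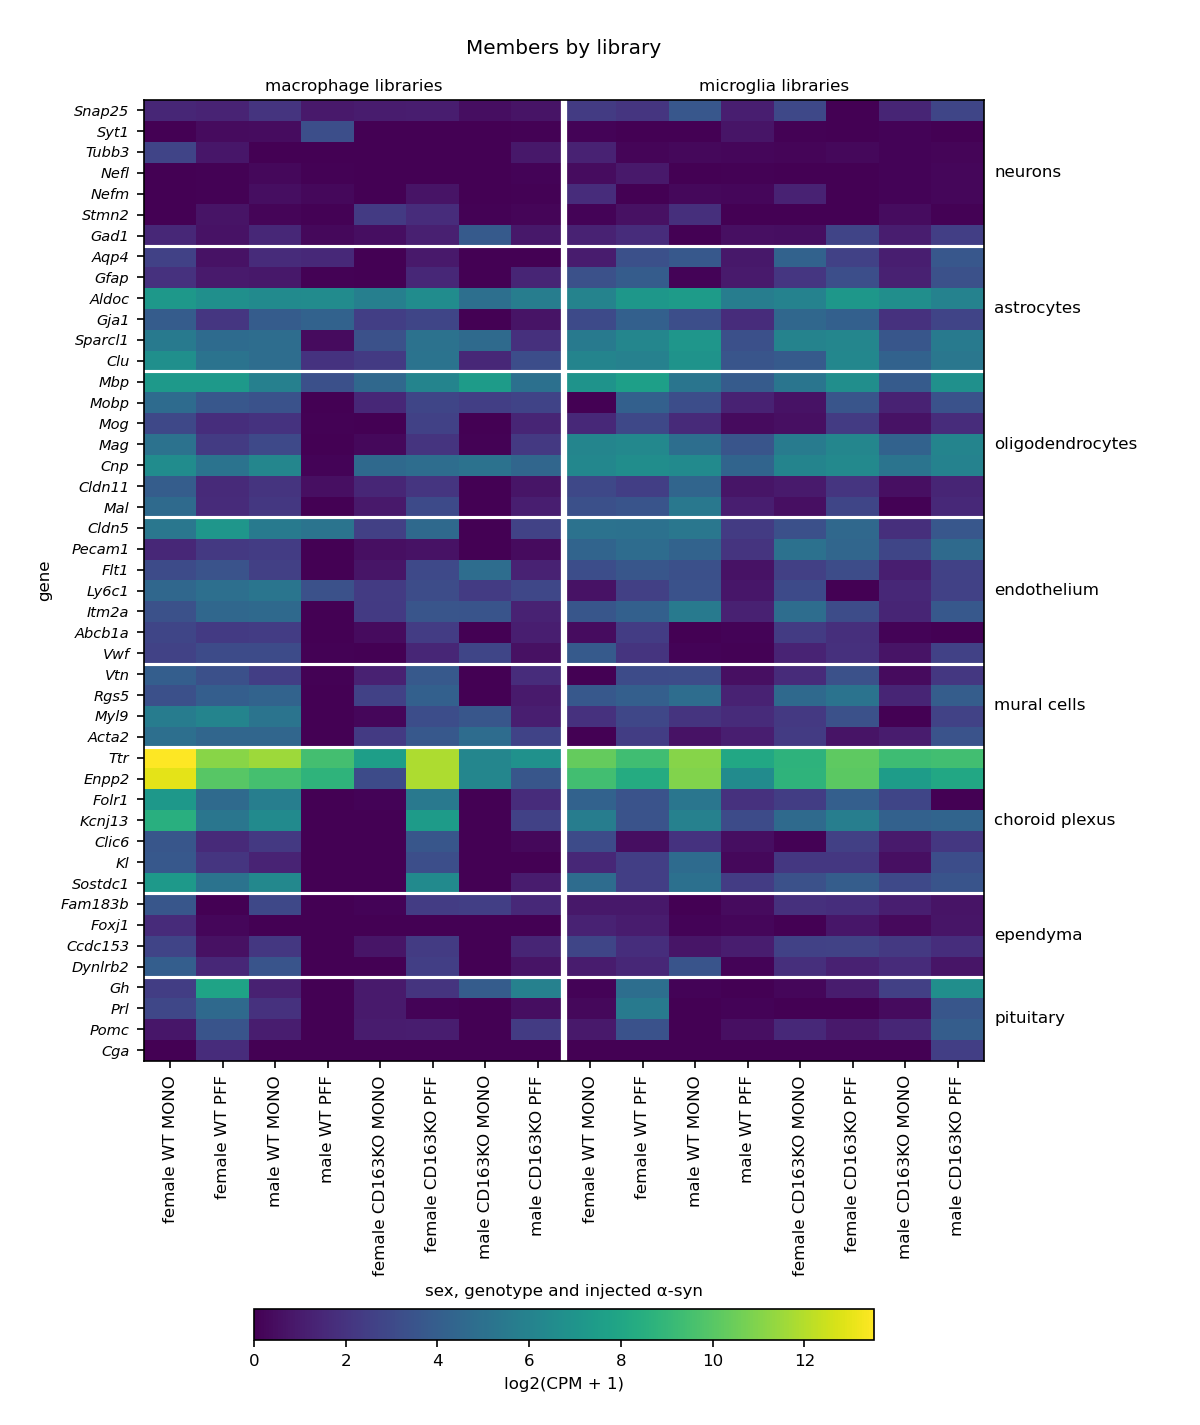
Level of each of the 46 genes (rows, grouped by class) in each of the 16 libraries (columns, macrophages left and microglia right), as log2(CPM + 1) on library totals. Ttr and Enpp2 are the brightest rows in both populations, the male WT PFF and male CD163KO MONO macrophage libraries are dark over most rows, and Gh is bright in female WT PFF and male CD163KO PFF.

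The choroid plexus had the highest summed CPM of the 8 classes in every library but male CD163KO MONO macrophages, where oligodendrocytes did. Its 7 genes summed to 20344 CPM in female WT MONO macrophages, 7699 in female CD163KO PFF, 3923 in male WT MONO, 3312 in female WT PFF, 1140 in male WT PFF, 195 in female CD163KO MONO, 147 in male CD163KO MONO and 133 in male CD163KO PFF. The highest macrophage library thus had 153-fold more than the lowest. In microglia the sum was 4341 CPM in male WT MONO, 2351 in female CD163KO PFF, 2054 in female WT MONO, 1019 in female WT PFF, 1001 in male CD163KO PFF, 912 in female CD163KO MONO, 833 in male CD163KO MONO and 378 in male WT PFF, an 11.5-fold range. The 3 combinations with the most choroid plexus RNA were the same in both populations, in another order.

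Ttr, which carries thyroxine and retinol-binding protein, had the highest level per length, in FPKM, of the 46 genes in every library. By plain counts it was highest in 13 of 16, behind Enpp2 in female CD163KO MONO microglia and female CD163KO PFF macrophages and behind Mbp in male CD163KO MONO macrophages. Its FPKM was 62.2 to 9920 in macrophages (median 1209) and 230 to 1840 in microglia (median 576). In female WT MONO macrophages Ttr took 1.17% of all counts and ranked 14 among the genes of the library by FPKM. Enpp2, the enzyme autotaxin that makes lysophosphatidic acid, had 2.37 to 2458 FPKM in macrophages and 28.3 to 627 in microglia. It too was highest in female WT MONO macrophages and in male WT MONO microglia. The other 5 genes of the class had lower levels. The folate receptor Folr1 reached 112 FPKM, the potassium channel Kcnj13 121, the secreted BMP and Wnt antagonist Sostdc1 94.6, the chloride channel protein Clic6 3.03 and the hormone coreceptor Kl 5.10.

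A ratio between 2 genes of the same library does not depend on how the libraries were scaled. Folr1 had 11.1 to 20.5 counts per 1000 counts of Ttr in the 5 macrophage libraries of female WT MONO, female WT PFF, male WT MONO, female CD163KO PFF and male CD163KO PFF. Microglia had 9.56 to 17.9, apart from male CD163KO PFF, where Folr1 had no count beside 11066 counts of Ttr. Kcnj13 had 14.7 to 57.8 counts per 1000 of Ttr in the 8 microglia libraries and 17.3 to 47.0 in the same 5 macrophage libraries. The remaining 3 macrophage libraries held Ttr and Enpp2 with hardly any count of the other 5 genes. Male WT PFF had 12831 counts of Ttr and 8026 of Enpp2, and no count of Folr1, Kcnj13, Clic6, Kl or Sostdc1. Male CD163KO MONO had 1395 counts of Ttr and 1392 of Enpp2, and again none of the other 5 genes. Female CD163KO MONO had 2318 counts of Ttr, 94 of Enpp2 and 1 of Folr1, the only one of the other 5 with a count.

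**Figure D2:**
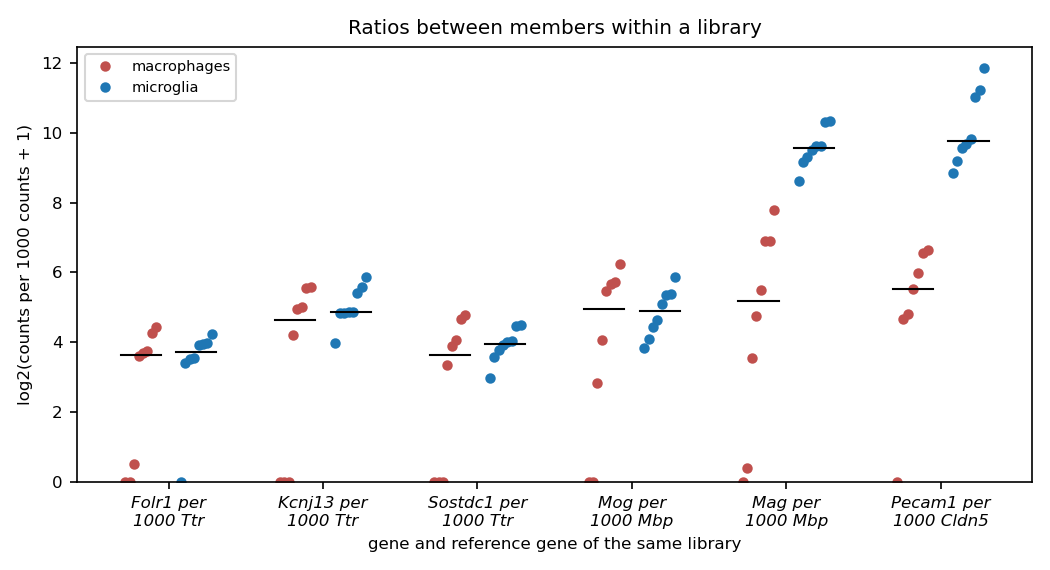
Counts of a gene per 1000 counts of a reference gene of the same class and library, as log2(ratio + 1), with 1 point a library and a bar at the median. The ranges of Folr1, Kcnj13, Sostdc1 and Mog overlap between macrophages and microglia, and Mag per Mbp and Pecam1 per Cldn5 are higher in all microglia libraries than in any macrophage library.

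Pituitary transcripts were concentrated in few libraries, and Gh and Pomc were highest in the same 2 combinations in both populations. Gh is made by somatotropes, Prl by lactotropes, Pomc, the precursor of adrenocorticotropin, by corticotropes and also by hypothalamic neurons, and Cga, the subunit shared by the glycoprotein hormones, by gonadotropes and thyrotropes. Gh had 4880 counts in female WT PFF macrophages, 1278 in male CD163KO PFF, 267 in male CD163KO MONO, 62 in female WT MONO, 37 in female CD163KO PFF, 27 in male WT MONO, 12 in female CD163KO MONO and 0 in male WT PFF. In microglia it had 1645 counts in male CD163KO PFF, 468 in female WT PFF, 90 in male CD163KO MONO, 18 in female CD163KO PFF, 3 in female CD163KO MONO, 1 in female WT MONO, 1 in male WT MONO and 0 in male WT PFF. The 3 combinations with the most Gh were therefore the same in both populations, and female WT PFF and male CD163KO PFF were the highest 2 in each. These are 2 of the 4 combinations that received fibrils. The other 2, female CD163KO PFF and male WT PFF, had 0 to 37 counts.

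Prl followed Gh only in part. It had 510 counts in female WT PFF macrophages, 89 in female WT MONO, 53 in male WT MONO and 0 to 12 in the other 5. In microglia it had 753 counts in female WT PFF, 185 in male CD163KO PFF and 0 to 6 in the other 6. Male CD163KO PFF macrophages held 1278 counts of Gh beside 9 of Prl, and female WT PFF microglia held 1609 counts of Prl per 1000 of Gh, so the hormones did not come in 1 ratio. Pomc had 222 counts in female WT PFF and 85 in male CD163KO PFF macrophages, against 0 to 22 in the other 6. In microglia it had 237 in male CD163KO PFF and 156 in female WT PFF, against 0 to 31 in the other 6. Cga had counts in 2 libraries, 48 in female WT PFF macrophages and 77 in male CD163KO PFF microglia. The 4 genes summed to 264 CPM in the highest macrophage library and 133 CPM in the highest microglia library. Of 16 further pituitary genes, 13 had a count, and these summed to 0.546 to 10.7 CPM in macrophages and 0 to 5.34 in microglia. Fshb, Pou1f1 and Pitx1 had no count in any library.

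**Figure D3:**
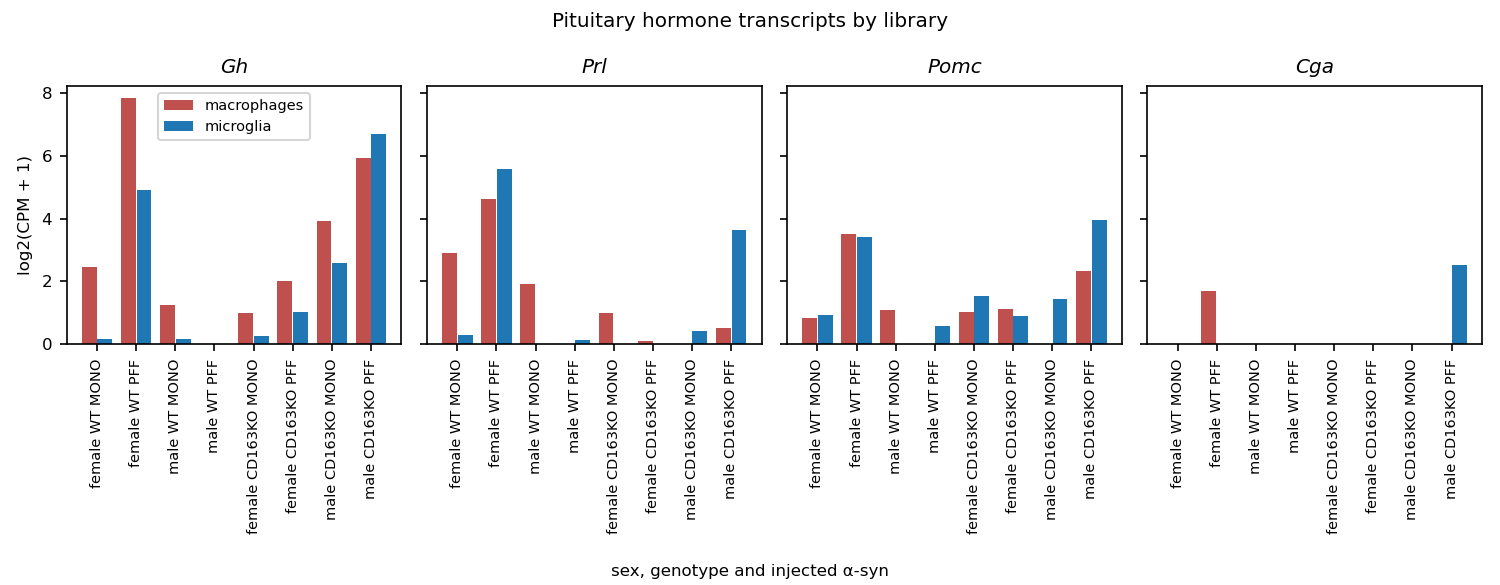
Level of Gh, Prl, Pomc and Cga in macrophages (red) and microglia (blue) for each combination of sex, genotype and treatment, as log2(CPM + 1), 1 library a bar. Female WT PFF and male CD163KO PFF have the highest Gh and Pomc bars in both populations, and the male WT PFF bars are at or near 0.

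Prl, Pomc and Cga, which were highest in libraries that also held much Gh, are shown by the bases around their start (from 250 before it on, 5′ to 3′, plus strand, RefSeq with build GRCm38.p6). Capitals mark matches on either strand to ATGNATA, a form of the motif of the pituitary factor POU1F1, and to TATAAA, the TATA box.
Prl, chr13:27057320-27057619: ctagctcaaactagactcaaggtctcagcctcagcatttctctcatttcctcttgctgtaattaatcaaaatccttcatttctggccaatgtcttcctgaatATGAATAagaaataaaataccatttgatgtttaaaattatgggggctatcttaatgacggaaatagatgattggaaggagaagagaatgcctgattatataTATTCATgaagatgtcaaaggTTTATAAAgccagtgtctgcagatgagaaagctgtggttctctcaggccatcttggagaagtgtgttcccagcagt
Pomc, chr12:3954695-3954994: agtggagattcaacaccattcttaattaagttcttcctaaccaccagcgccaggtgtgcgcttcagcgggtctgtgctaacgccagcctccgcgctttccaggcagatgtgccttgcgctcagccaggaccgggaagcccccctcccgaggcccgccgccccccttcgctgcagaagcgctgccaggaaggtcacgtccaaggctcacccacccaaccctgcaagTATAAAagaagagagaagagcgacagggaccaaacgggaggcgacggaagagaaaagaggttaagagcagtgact
Cga, chr4:34893529-34893828: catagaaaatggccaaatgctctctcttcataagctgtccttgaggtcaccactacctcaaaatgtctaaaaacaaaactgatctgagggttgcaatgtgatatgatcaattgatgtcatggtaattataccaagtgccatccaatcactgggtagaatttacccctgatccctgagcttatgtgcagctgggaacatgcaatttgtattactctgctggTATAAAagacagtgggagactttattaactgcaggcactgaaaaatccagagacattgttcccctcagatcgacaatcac
The Prl window held 2 matches to ATGNATA, which start 148 and 47 bases before the gene's start, and Pomc and Cga none. ATGNATA was matched in 8.84% of 32851 promoters of the same length. All 3 windows held TATAAA, 24, 25 and 30 bases before the start on the plus strand, against 13.6% of all promoters, and in Prl a match on the other strand overlapped it. The gene of Gh lies at chr11:106300261-106303703.

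Every library held counts of oligodendrocyte genes, and their sum was lowest in male WT PFF in both populations. Mbp, the basic protein that compacts myelin, had 2.11 to 76.8 FPKM in macrophages (median 26.7) and 5.38 to 89.3 in microglia (median 31.0), highest in female WT PFF in both. Cnp, a myelin phosphodiesterase, had 0.05 to 41.0 FPKM in macrophages, with the lowest in male WT PFF at 2 counts, and 8.32 to 42.5 in microglia. Mag, the myelin adhesion protein that faces the axon, had 0 to 13.9 FPKM in macrophages (median 1.40) and 4.41 to 32.2 in microglia (median 24.2). Mag stood apart from the rest of its class. It had 391 to 1306 counts per 1000 counts of Mbp in the 8 microglia libraries (median 758) and 0 to 221 in the 8 macrophage libraries (median 35.2), so the ranges did not overlap. Mog, a protein of the outer myelin surface, had 13.2 to 57.0 counts per 1000 of Mbp in microglia (median 28.5) and 0 to 74.3 in macrophages (median 29.6), which overlapped. Mobp, Cldn11 and Mal, of the myelin sheath and its tight junctions, reached 15.6, 11.0 and 15.6 FPKM. In male CD163KO MONO macrophages Mbp had 3262 counts, Cnp 619, Mobp 88 and Mag 1, beside none of Mog, Cldn11 or Mal. In male WT PFF macrophages Mbp had 164 counts, Cldn11 9, Cnp 2 and Mog 1, beside none of Mobp, Mag or Mal. Most genes of the class thus had few counts or none in these 2 libraries.

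Of the astrocyte genes, Aldoc had the smallest ratio of its highest to its lowest CPM of the 46 genes in both populations. This glycolytic enzyme had 11.4 to 54.9 FPKM in macrophages (median 33.7) and 20.0 to 65.1 in microglia (median 31.7). Clu, a secreted chaperone, had 1.04 to 59.7 and 6.17 to 68.7 FPKM, and Sparcl1, a matrix protein that promotes synapses, had 0.11 to 14.4 and 2.83 to 44.4. Both were highest in female WT MONO macrophages and in male WT MONO microglia. The genes most particular to astrocytes by common use were low. Aqp4 had no count in 3 macrophage libraries and at most 1.02 FPKM there, and 0.16 to 3.46 FPKM in microglia. Gfap, the intermediate filament, had at most 1.02 FPKM in macrophages and 5.48 in microglia, and Gja1 at most 5.82 and 7.15.

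Of the endothelial genes Cldn5 had the highest median FPKM in both populations, though not the highest level in every library. It had 101 FPKM in female WT PFF macrophages, which held 2975 counts, a median of 21.6 over the 8 libraries, and no count in male CD163KO MONO. In microglia Cldn5 had 1.85 to 29.5 FPKM (median 12.8). Of the VEGF receptor Flt1, male CD163KO MONO macrophages held 526 counts, the most of any library, beside no count of Cldn5. Pecam1, an adhesion molecule of endothelium that platelets and leukocytes also carry, had 464 to 3739 counts per 1000 of Cldn5 in microglia (median 862) and 0 to 98.4 in the 7 macrophage libraries with Cldn5 (median 45.5). These ranges did not overlap. Ly6c1 had 4.90 to 47.4 FPKM in macrophages and 0 to 12.1 in microglia. Ly6c2, its paralog and a gene of monocytes, shares 31.7% of the 50-base stretches of the Ly6c1 transcript, so counts could be split between the 2 genes. Itm2a, a membrane protein, reached 28.2 FPKM, and the efflux pump Abcb1a and the clotting factor carrier Vwf at most 1.16 and 1.47.

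Myl9, a myosin light chain, had 1426 counts in female WT PFF macrophages (64.1 FPKM) and none in male WT PFF, and at most 9.07 FPKM in microglia. Acta2, smooth muscle actin, had at most 11.7 FPKM in macrophages and 3.91 in microglia. Rgs5, a regulator of G protein signalling in pericytes, had 0 to 4.59 and 0.35 to 8.37 FPKM, and Vtn, the matrix protein vitronectin, at most 9.19 and 5.32. Summed, the 4 genes had 112 CPM in the highest macrophage library, 104 in the next and 0.0546 in male WT PFF, which held 1 count.

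The 7 neuronal genes summed to 2.65 to 13.8 CPM in macrophages and 2.72 to 14.9 in microglia. The 14 further neuronal genes with a count summed to 2.31 to 52.4 and 1.58 to 40.6 CPM. Snap25 had 0.21 to 1.52 FPKM in macrophages and 0 to 5.93 in microglia, and Gad1, the enzyme that makes GABA, 0.07 to 4.11 and 0 to 1.78. The highest library changed from gene to gene. It was male WT PFF for the vesicle calcium sensor Syt1 (153 counts), female WT MONO for the tubulin Tubb3 (80), female CD163KO MONO for the growth-cone protein Stmn2 (48) and male CD163KO MONO for Gad1 (252), all in macrophages. The neurofilaments Nefl and Nefm had at most 14 and 24 counts in any library.

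The 4 ependymal genes summed to 0 CPM in male WT PFF macrophages and 35.0 in female WT MONO, and to 1.71 to 11.2 in microglia. Dynlrb2, a light chain of the dynein motor in cilia, reached 34.3 FPKM in macrophages and 23.0 in microglia. Fam183b and Ccdc153, both of motile cilia, reached 20.4 and 6.04 FPKM. Foxj1, the factor that switches on motile cilia, stayed under 1 FPKM in all 16 libraries, and 6 of 8 macrophage libraries had no count of it.

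**Figure D4:**
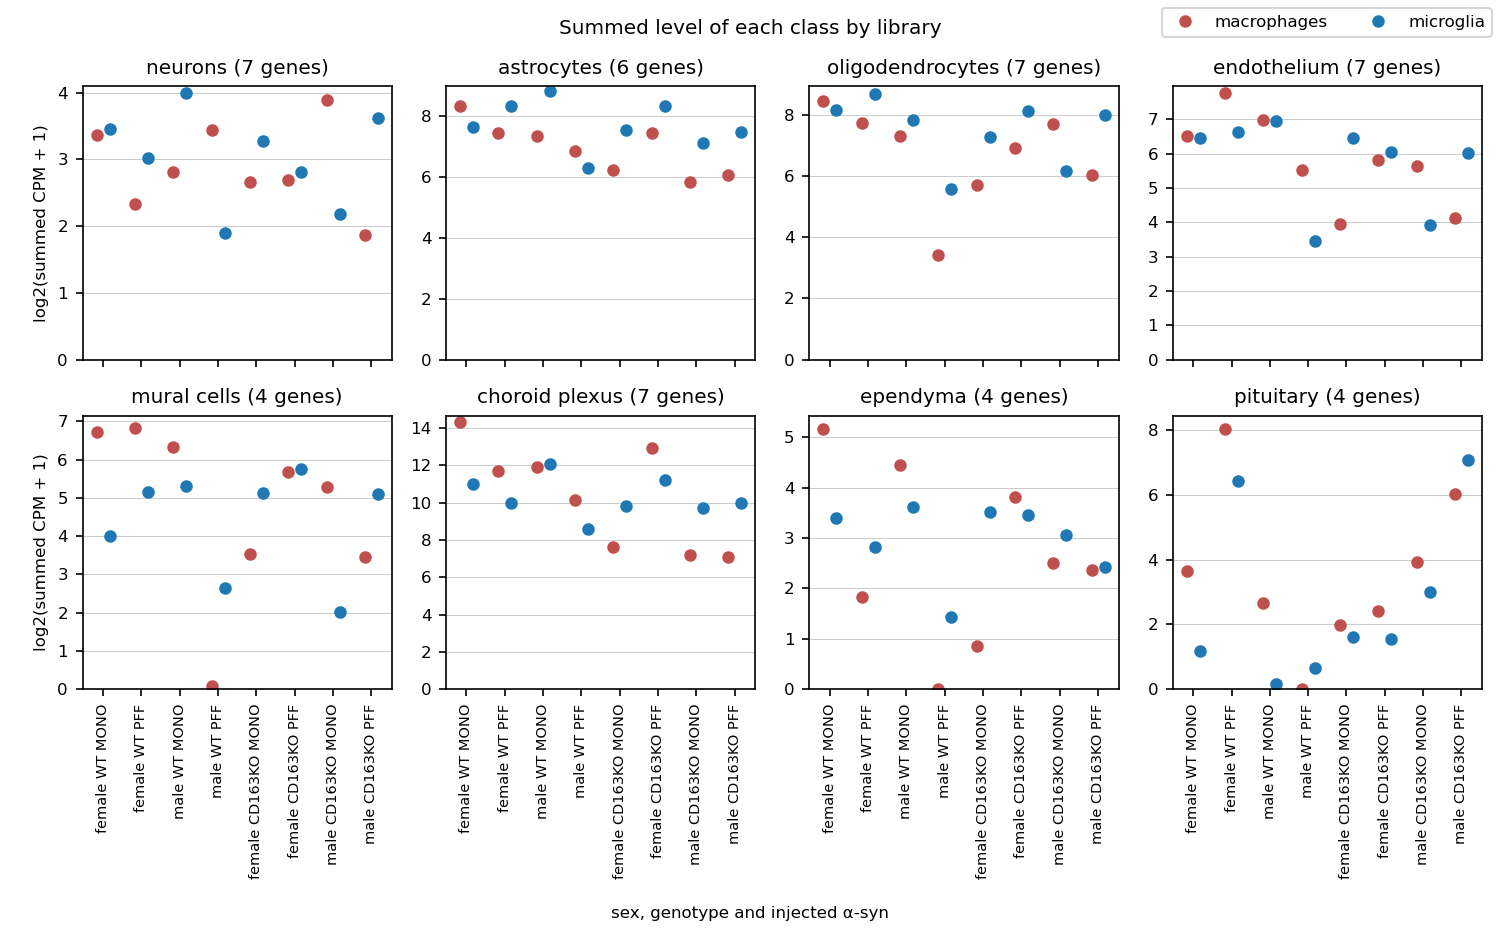
Summed level of each class by combination of sex, genotype and treatment, as log2(summed CPM + 1), with macrophages in red and microglia in blue, 1 library a point. Choroid plexus sums are the highest but for male CD163KO MONO macrophages, the pituitary sums peak in female WT PFF and male CD163KO PFF, and the male WT PFF macrophage library is lowest for oligodendrocytes, mural cells, ependyma and pituitary.

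To ask whether a population carried more of this RNA, microglia were compared with macrophages over 7 matched combinations, without male CD163KO MONO. After a filter on low counts 38 of the 46 genes were tested, and 4 were called, all lower in microglia, by edgeR's quasi-likelihood test. Over all 10987 genes tested the test called 22.8%, with 8.46% higher and 14.3% lower, so the share among the 38 was under that of all genes. The log2 difference was -4.13 ± 0.66 (SE) for Gh (adjusted p = 0.00164), -1.85 ± 0.42 for Cldn5 (adjusted p = 0.0096), -3.93 ± 1.08 for Ly6c1 (adjusted p = 0.0241) and -1.37 ± 0.42 for Aldoc (adjusted p = 0.0392). By plain CPM, Gh was lower in microglia in 6 of all 8 combinations and higher in 1, male CD163KO PFF, with 102 against 60.4 CPM. Ly6c1 was lower in 7 of 8 and Cldn5 in 5 of 8, while Aldoc, though called lower, was higher in microglia in 6 of 8. Mag (2.53 ± 1.09, adjusted p = 0.128) and Pecam1 (2.96 ± 1.10, adjusted p = 0.0813) did not pass the threshold.

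These calls depended on how libraries were scaled. The trimmed mean of M values (TMM) used here gave factors from 0.285 to 2.28. With library totals alone, the median log2 difference of all genes moved from 0.28 to 1.93, and that of the 38 genes from -1.03 to 0.48. Gh (-2.29) and Ly6c1 (-2.70) were still called lower, beside 4.38% of all genes, and Mag (4.36), Pecam1 (4.59) and Sparcl1 (2.32) were called higher, beside 49.1%. Cldn5 (-0.47) was not called and Aldoc lay at 0.08. The male WT PFF combination also set the count. Without it 12 of the 39 genes then tested were called, Mag and Pecam1 higher and Acta2, Aldoc, Cldn5, Cnp, Folr1, Gh, Ly6c1, Mbp, Mobp and Ttr lower. Of all genes 19.9% were then called higher and 22.6% lower, 42.5% in all. Without female CD163KO MONO, 3 of 38 were called, Cldn5, Gh and Ly6c1, all lower, beside 5.26% of all genes higher and 11.2% lower.

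**Figure D5:**
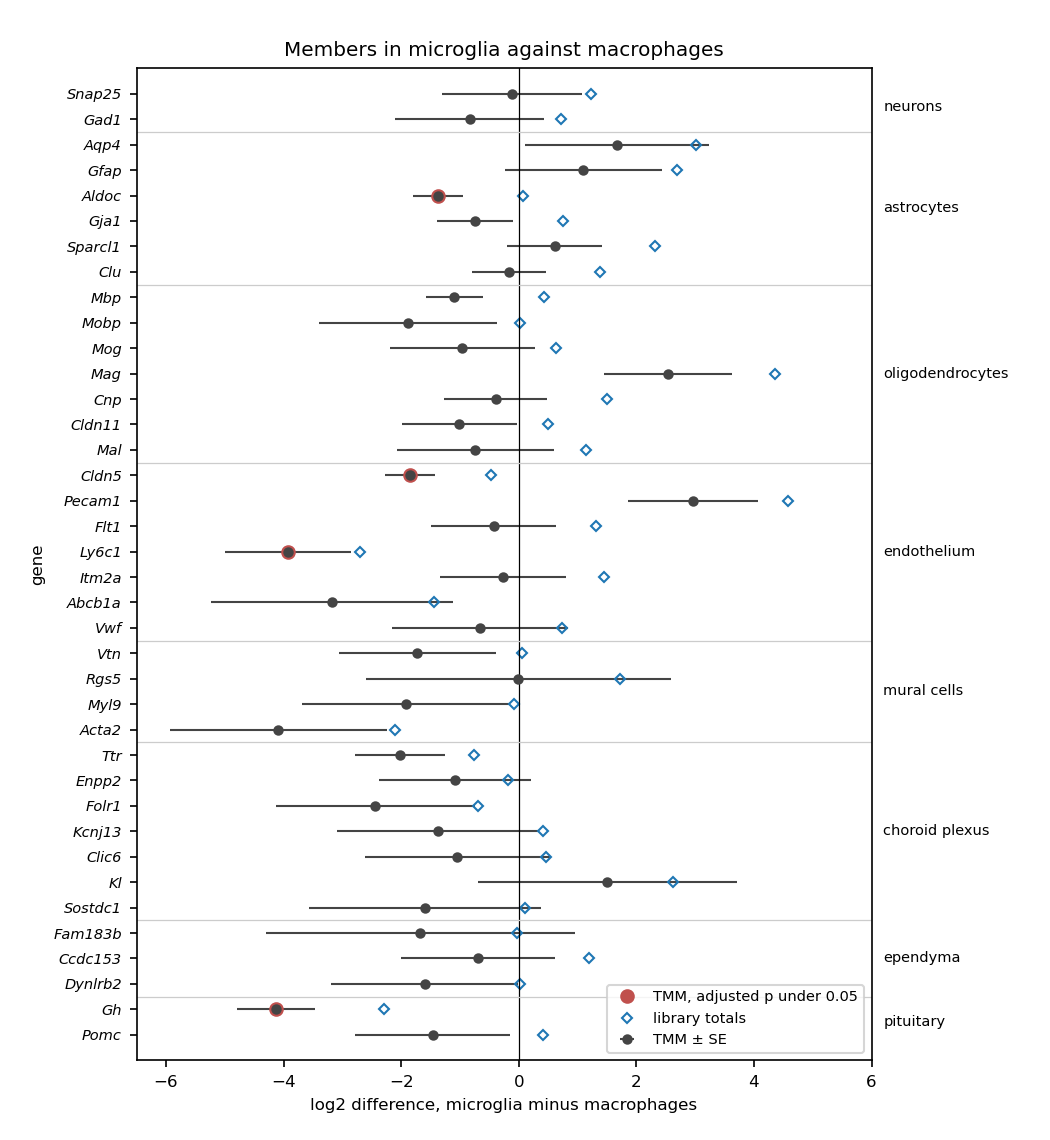
log2 difference of microglia minus macrophages for the 38 genes tested, over 7 matched combinations, with TMM scaling (filled points, bars show SE, red where the adjusted p was under 0.05) and with library totals (open diamonds). The diamonds lie to the right of the filled points throughout, and Mag and Pecam1 have the highest values within their classes under both scalings.

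Further genes of the same classes were counted in the same way, beside the 8.46% of all genes called higher and 14.3% called lower. Of 4 further neuronal genes tested none was called. Of 13 further astrocyte genes Slc1a3, a glutamate transporter, was higher in microglia (3.16 ± 0.86) and S100b, a calcium-binding protein, was lower. Of 9 further oligodendrocyte genes Apod, Cryab, Ptgds and Qdpr were lower, with Apod at -3.32 ± 0.41. Egfl7 was lower among 10 endothelial genes (-6.05 ± 1.20), F5 among 10 of the choroid plexus (-5.01 ± 1.25), and none was called among 3 of mural cells and 8 of ependyma. Of 3 leptomeningeal fibroblast genes Slc6a13 was lower (-6.24 ± 1.44), and of 3 platelet genes Gp9 (8.59 ± 1.37) and Itgb3 (4.19 ± 0.96) were higher. With library totals alone, where 49.1% of all genes were called higher and 4.38% lower, Apod was the only further oligodendrocyte gene called, S100b was lost, Slc1a3, Egfl7, F5, Slc6a13, Gp9 and Itgb3 kept their calls, and Syp, Glul, Kdr, Kcne2 and Treml1 were called higher and Dcn lower. These lists were also chosen with earlier results of these data known.

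To ask whether fibrils, genotype or sex went with this RNA, each population was fitted with the 3 factors as additive terms over 7 libraries, which leave 3 residual degrees of freedom. None of the 41 genes tested in macrophages or the 39 in microglia passed the threshold in any of the 6 comparisons by edgeR or by DESeq2. Of all genes, 0% were called in 5 of the comparisons and 0.00899% in the other, the genotype comparison in macrophages, where the gene was Cd163 itself (-11.34 ± 0.82). At an unadjusted p under 0.05 stood 0 to 4 of the members and 78 to 740 of all genes in each comparison, and DESeq2 called 1 to 30 of all genes. Between fibrils and monomer, Gh differed by 6.23 ± 2.49 on the log2 scale in macrophages (adjusted p = 1.00) and 7.36 ± 2.11 in microglia (adjusted p = 0.763). With library totals alone it was called in both, at 5.33 (adjusted p = 0.025) and 7.33 (adjusted p = 0.00205), beside 1 of 11119 and 2 of 11756 genes in all. Without female WT PFF it turned to -1.84 in macrophages. In microglia the MONO libraries of the fit held at most 3 counts of Gh, so it passed the filter only through fibril libraries where it was high. The call there is therefore no independent support. It was tested in 10 settings in microglia, against 13 in macrophages.

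In macrophages the 41 genes leaned toward the females. The log2 difference of males minus females was below 0 for 41 of 41, with a median of -1.64, against -0.16 over all 11119 genes, of which 4760 were above 0. Ttr stood at -3.02 ± 1.15 and Enpp2 at -4.70 ± 1.89 (both adjusted p = 1.00), and both were called lower in males with library totals (Ttr -2.66, Enpp2 -4.31). That fit called 6 of all 11119 genes, 4 of them lower. Without male WT PFF, the library with the fewest genes, 7 of 41 were above 0 and the median was -0.92. Without male WT MONO, male CD163KO PFF or female CD163KO MONO the median was -2.79, -2.64 or -2.65. Without female WT MONO, female CD163KO PFF or female WT PFF it was -1.52, -1.35 or -1.23. In these last 3 fits 3 of 40, 2 of 40 and 5 of 38 genes were above 0. Markers of myeloid cells stood on either side of 0 in the same fit, with 12 of 12 neutrophil genes above 0 (median 0.73), 5 of 6 monocyte genes above 0 (0.62) and 0 of 12 homeostatic microglia genes (-0.57), none of them called, and their part in the lean was not tested. With library totals 6 of 12 homeostatic microglia genes were above 0. In microglia 19 of 39 members were above 0 and the median was -0.02. For genotype in macrophages the median was -0.90 with 8 of 41 above 0, against 0.15 with 6436 of 11119 over all genes, but its direction turned when single libraries were left out. It was 0.67 with 26 of 41 above 0 without female CD163KO MONO, 0.29 without female WT PFF, -0.21 without male WT MONO and -2.20 with 1 of 41 above 0 without male WT PFF. The median of fibrils minus monomer in macrophages was -0.11 with 19 of 41 above 0, and over all genes it was -0.11 with 4956 of 11119. It went from -1.50 without female CD163KO MONO to 1.04 with 36 of 41 above 0 without male WT PFF, and was also above 0 without male WT MONO (0.66) or female WT MONO (0.14). Within the genotype comparison Cldn5 stood at -2.93 ± 0.72 (unadjusted p = 0.0041, adjusted p = 1.00).

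Whether the classes rose and fell together was asked with 1 gene a class (Snap25, Aldoc, Mbp, Cldn5, Rgs5, Ttr, Foxj1 and Gh) over the 8 libraries of a population. Of 28 pairs, 26 had a rho above 0 in macrophages and 25 in microglia. Foxj1 had no count in 6 of the 8 macrophage libraries, so its pairs there rest mostly on 2 libraries. Their lowest exact permutation p by rho was 0.0357, so they could hardly pass the adjustment. By an exact two-sided permutation test of Spearman's rho none of the 56 pairs passed the threshold after Benjamini-Hochberg adjustment, while 7 and 2 had an unadjusted p under 0.05. The strongest was Aldoc with Ttr in macrophages, with a rho of 0.88 (exact permutation p = 0.00724, adjusted p = 0.15) and a Pearson's r of 0.94 on log2(CPM + 1) (exact permutation p = 0.00047, adjusted p = 0.0264). Without the 2 libraries farthest in Aldoc, r was 0.91. No pair was called by r with TMM scaling or without any 1 of the 8 libraries. In microglia it was Cldn5 with Ttr (rho 0.86, exact permutation p = 0.0107, adjusted p = 0.15, r 0.76, exact permutation p = 0.0277, adjusted p = 0.194), and r was 0.80 without the 2 libraries farthest in Cldn5. With TMM scaling 28 pairs were above 0 in macrophages and 14 in microglia.

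Over all pairs of the 46 genes, given as a description, the median rho in macrophages was 0.60 for the 117 pairs within a class and 0.48 for the 918 pairs between classes. Choroid plexus genes went together most closely (median 0.91 over 21 pairs), followed by oligodendrocyte with choroid plexus genes (0.86 over 49 pairs) and oligodendrocyte genes with each other (0.79). Neuronal genes had a median of 0.04 with each other. Pituitary genes had 0.47 with mural cell, 0.41 with endothelial and 0.39 with oligodendrocyte genes. They had 0.25 with choroid plexus, 0.21 with astrocyte, 0.20 with ependymal and 0.14 with neuronal ones. In microglia the medians were 0.48 within and 0.24 between classes, and 0.69 within choroid plexus. Pituitary genes there had 0.23 with mural cell, 0.22 with oligodendrocyte and 0.16 with endothelial genes. With the other classes they had 0.05 (astrocytes) to -0.14 (choroid plexus). Without male CD163KO MONO and male WT PFF, left out after the data were seen, the medians within and between classes were 0.75 and 0.54 in macrophages and 0.15 and 0.03 in microglia. The labels name batches without saying which library was in which, so no value within a batch could be given, and the part of depth and of the number of listed genes was not tested.

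The macrophage and microglia libraries of a combination were also set against each other over the 8 combinations. This was chosen after the data were seen. Ranks of the 46 genes agreed in sign more often than not, with a rho above 0 for 36 of 46 (78.3%) and a median of 0.37, against 44.1% and -0.07 over 13399 genes. It was above 0 for all 7 genes each of oligodendrocytes (median 0.60), endothelium (0.35) and choroid plexus (0.66), and for 2 of 7 neuronal genes (0.00). Without male CD163KO MONO and male WT PFF it was above 0 for 31 of 46 members (67.4%, median 0.21), against 55.3% and 0.09 over all genes, and for 6 of 7 oligodendrocyte, 5 of 7 endothelial and 6 of 7 choroid plexus genes. Without female CD163KO MONO it was above 0 for 37 of 46, with all 7 in each of these 3 classes. Among the representative genes other than Gh, rho was 0.85 for Rgs5 (exact permutation p = 0.0115, adjusted p = 0.0714; Pearson's r 0.86, exact permutation p = 0.0062, adjusted p = 0.025, and 0.47 without the 2 combinations farthest in macrophages). It was 0.79 for Cldn5 (exact permutation p = 0.0279, adjusted p = 0.0714; r 0.73, exact permutation p = 0.0365, adjusted p = 0.073, and 0.40 without those 2) and 0.64 for Ttr (exact permutation p = 0.0962, adjusted p = 0.154; r 0.58, exact permutation p = 0.137, adjusted p = 0.219, and 0.73 without those 2). Foxj1, with no count in 6 macrophage libraries, had a rho of 0.76 (exact permutation p = 0.0357, adjusted p = 0.0714; r 0.70, exact permutation p = 0.0179, adjusted p = 0.0476). The lowest were Mbp (0.38), Snap25 (0.36) and Aldoc (0.21, r 0.11). None passed the threshold by rho after adjustment over the 8 genes. For Gh no correlation is given, since female WT PFF and male CD163KO PFF stand apart from the rest.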

How the data were processed

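The authors removed rRNA and low-quality reads, mapped the rest with Bowtie2 and estimated expression with RSEM, and per the labels the build is mm10. Bowtie2, RSEM and DESeq2 are named in the submitters' processing notes without versions. Each deposited table lists RefSeq transcripts with an expected count (the estimated count of RSEM, not normalized) and an FPKM value, per kilobase and scaled to the library, both made by the authors. Sequencing was in triplicate, while 1 table a combination was analysed here, and how the tables relate to the triplicates is not given in the sources used here. How many mice gave each library is not given there either.

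Both units were summed per gene symbol (27632 of 27787 transcripts had one), with unlisted genes at 0. The 46 members are all named. Members, further lists and tests were chosen with earlier results of these data known. Expected counts were rounded and tested with edgeR 4.0.16 (quasi-likelihood, TMM, its filter at 10 counts, Benjamini-Hochberg over all genes at 0.05) in R 4.3.3. SE is the log2 difference over the square root of the F statistic. Alternatives used RLE factors, library totals, no filter, DESeq2 1.42.0, limma 3.58.1 on log2(FPKM + 1), other covariates and left-out libraries. The steps were tested on simulated data. Correlations used log2(CPM + 1) and exact permutation (scipy 1.17.1). With no replicate of a combination, p-values measure the spread between these libraries. Depth was 8648751 to 21433841 counts. PCR copies carry no molecular identifiers, so count limits cover counting error only. Strand is not marked in SMART-seq2, so antisense overlap cannot be told apart.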

Additional observations from a re-analysis of the deposited data

Results flagged for a closer look

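A check of each gene over the 8 libraries of a population used Dixon's criterion on log2(CPM + 1). It found 11 cases, in 8 genes, of a library far from the others, out of 46 genes in each population. Chance flags about 1 in 20 groups of normally distributed values, a rate that does not hold for genes at 0 in many libraries. Cga was at 0 in 7 of 8 libraries of each population. In macrophages Foxj1 was at 0 in 6 libraries, Tubb3 in 5 and Syt1 in 4. The number of cases is therefore not set against that rate. None of the 16 class sums had a library far from the others on the log2 scale. On plain CPM, tried after the data were seen, 3 had one, all in macrophages: the pituitary sum in female WT PFF (264 CPM, next 64.9) and the choroid plexus and astrocyte sums in female WT MONO (20344, next 7699, and 318, next 171). On the log2 scale, with values given in CPM, the genes in macrophages were Syt1 in male WT PFF at 8.36 CPM (next library 0.362), Tubb3 in female WT MONO at 5.77 (next 0.851), Gad1 in male CD163KO MONO at 13.3 (next 1.81), Foxj1 in female WT MONO at 2.16 (next 0.187) and Cga in female WT PFF at 2.24 (the other 7 at 0). Cnp was far below the rest in male WT PFF macrophages, at 0.109 CPM against 20.8 in the next lowest library.

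In microglia the genes were Syt1 in male WT PFF at 0.692 CPM (next 0.115), Tubb3 in female WT MONO at 1.49 (next 0.234), Nefl in female WT PFF at 0.869 (next 0.344), Stmn2 in male WT MONO at 2.54 (next 0.497) and Cga in male CD163KO PFF at 4.77 (the other 7 at 0). Syt1 and Tubb3 thus had their far library in the same combination in both populations. Of the 11 cases, 7 were of neuronal genes.

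The male CD163KO MONO libraries enter the correlations but none of the main edgeR fits. They had higher sums for some classes than any of the 3 MONO control libraries of their population. In macrophages they held 13.8 CPM over the neuronal genes, against at most 9.30, and 14.1 CPM over the pituitary genes, against at most 11.7. Gad1 alone made up 13.3 of the neuronal CPM, and Gh the whole of the pituitary sum, with Prl, Pomc and Cga at 0. In microglia they held 7.06 CPM over the pituitary genes, against at most 2.08, and Gh made up 5.00 and Pomc 1.72 of the 7.06 CPM. These differences have no replicate.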

How the results depend on the processing

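The comparison of microglia with macrophages was the most dependent on the processing. It called 4 members beside 22.8% of all genes, 9 with DESeq2 (40.7% of all genes), 2 with male CD163KO MONO included (20.1%), 7 of 43 with limma on log2(FPKM + 1) (47.1%, mostly higher) and 8 with population as the only term (27.6%). It called 2 to 12 when a combination was left out (12 without male WT PFF, beside 42.5% of all genes, and 2 without female WT MONO or without female WT PFF, beside 16.7% and 16.8%). The share of members called in either direction was above that of all genes in none of these settings. For lower calls alone it was above it without male WT PFF (10 of 39, beside 22.6%). The same held with population as the only term (8 of 38, beside 17.9%). The difference of Aldoc turned to 0.0755 with library totals and to 0.0703 with limma, and that of Sparcl1 to -0.086 with population as the only term. Over 15 alternatives Gh, Cldn5 and Ly6c1 lost the threshold in 3 each, and none of these turned in direction. Aldoc kept its call in 5, lost it without turning in 8 and turned in 2. Within a population the 0 members called became 1 for fibrils in macrophages (Gh), 2 for sex in macrophages (Ttr, Enpp2) and 1 for fibrils in microglia (Gh) with library totals, and 2 for fibrils in microglia without the filter (Gh, Prl). Over all genes these 3 fits with library totals called 1 of 11119, 6 of 11119 and 2 of 11756. The fit without the filter called 11 of 17896. Leaving out a library left 0 in each of the 6 comparisons. Gh for fibrils in macrophages ranged from -1.84 (reversed, without female WT PFF) to 6.61 when a library was left out. No pair of representative genes was called by rho under any alternative, with libraries left out included, while Pearson's r called 1 in macrophages as reported, with log2(FPKM + 1) and with a pseudocount of 0.1, and 0 with TMM scaling or any library left out. The causes were not tested. The comparison of the populations was matched by combination, and the labels give no replicate numbers that would pair libraries within a population. Depth limits a gene at 0 to under 3 counts, and interactions between the factors were not tested.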
